A study of Mus musculus with 5 samples.

Results

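The genes described here are 9 members of the Bcl2 family of apoptosis regulators that are not among the family's well-known p53 targets, out of 20365 gene names in the tables. They were taken by name, from a list chosen with earlier results of these data known. They are the anti-apoptotic *Mcl1*, *Bcl2* and *Bcl2l1*, the BH3-only genes *Bcl2l11*, *Bid*, *Bad* and *Bmf*, and the effectors *Bak1* and *Bok*. A gene stands here for 1 of its 3′ UTR intervals, chosen as the one whose CPM was highest on average over the labeled libraries, so that 9 of the 16 intervals of these genes were used. The cells were cultured cardiac fibroblasts (CF) from hearts of adult, healthy, male C57Bl/6J wildtype mice, digested with collagenase during Langendorff perfusion and expanded to confluency. The labeled group (n = 3) was kept for 12 h with 0.1 mM 4-thiouridine (S4U), a uridine analog that cells build into new RNA, and the unlabeled group (n = 2) was kept in parallel without S4U. RNA of both groups was alkylated, which causes T>C conversions at incorporated S4U during sequencing. According to the study's methods SLAMseq was done on separate CF preparations, but the sources do not say which replicate of either group came from which preparation.

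Proteins of the Bcl2 family decide whether the outer mitochondrial membrane is opened to release cytochrome c. The effectors form the pores, the anti-apoptotic proteins bind and restrain them, and the BH3-only proteins sense stress and either block the anti-apoptotic proteins or activate the effectors. Fibroblasts are known to resist apoptosis in scar tissue, and MCL1 in particular is a short-lived protein that has to be made continuously. In SLAMseq the T>C conversion rate, which is conversions per covered T position, rises with the fraction of a transcript that was made during labeling.

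In the labeled CF, *Mcl1* and *Bcl2l1* were the most highly read members and *Bmf* the lowest, over a range from 176 to 6.32 CPM. The mean T>C conversion rates of the 9 members lay between 0.0335 and 0.0432, and no neighbours in their order differed beyond the spread between libraries. Anti-apoptotic members took 60.9% ± 6.50 (SD, n = 3) of the members' reads in labeled CF and 58.2% in unlabeled CF. *Bcl2l1* had a higher CPM in every labeled library than in either unlabeled library, and *Mcl1*, *Bid* and *Bmf* had a lower one. Of all genes tested for reads, 8.2% were likewise above and 13.1% below. The difference of *Bcl2l1* did not pass the test after adjustment over all genes. With the replicate number as a block, *Bcl2l1* and *Mcl1* passed, as did 11.7% of all genes. The labels do not say that a number marks a shared preparation.

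Libraries held 506045 to 1842863 counted reads when 1 interval of each gene was used, of which 331 to 1424 fell on the 9 members. Over all intervals the T>C rate was 0.0355 ± 0.000264 (SD, n = 3) in labeled CF, and it was 0.00111 and 0.000652 in the unlabeled libraries. Labeled replicate 1 stood apart from the other labeled libraries, with a chi-square of read counts, per degree of freedom, of up to 16.6 against them, where the other two had 2.04 between them. The unlabeled libraries differed from each other by 16.1. Fibroblast markers summed to between 39221 and 42840 CPM in labeled and between 31908 and 35548 CPM in unlabeled libraries, with all 10 detected. They did not move together. Labeled against unlabeled means were higher for *Col1a1* (13036 against 9222 CPM) and *Col1a2* (11048 against 8183). They were lower for *Pdgfra* (521 against 782) and *Ddr2* (285 against 417), and close for *Dcn* (4916 against 4918) and *Lum* (711 against 713). Cardiomyocyte markers summed to at most 8.03 CPM in any library, with *Myl2* listed at 0 in all, macrophage markers to at most 104 CPM, endothelial markers to at most 198 CPM, and smooth muscle and pericyte markers to at most 85.3 CPM. In such bulk samples fewer cells of a type and less RNA per cell cannot be told apart.

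The intervals used lie in annotated 3′ UTRs of GRCm39. That of *Mcl1* (ENSMUSG00000038612.18) spans chr3:95568135-95570490 on the plus strand and runs 3 bases past the annotated end of the gene, and that of *Bcl2* runs 2 bases past its gene. The interval of *Bcl2* (ENSMUSG00000057329.9) is chr1:106465906-106470993 on the minus strand, that of *Bcl2l1* (ENSMUSG00000007659.20) chr2:152622584-152624064 on the minus strand, and that of *Bcl2l11* (ENSMUSG00000027381.19) chr2:128000250-128004467 on the plus strand. *Bid* (ENSMUSG00000004446.14) was counted on chr6:120870080-120871241, minus strand, *Bad* (ENSMUSG00000024959.16) on chr19:6928893-6929273, plus strand, and *Bmf* (ENSMUSG00000040093.18) on chr2:118359238-118363038, minus strand. *Bak1* (ENSMUSG00000057789.16) was counted on chr17:27238786-27239904, minus strand, and *Bok* (ENSMUSG00000026278.16) on chr1:93622885-93623492, plus strand. The intervals of *Bcl2*, *Bid* and *Bad* overlap an exon of a gene on the other strand (D630008O14Rik, *Bcl2l13* and Gm56656), and that of *Bak1* lies in introns of *Ggnbp1* and Gm50253 on the other strand. The library kit keeps the strand, but the sources used here do not state whether the counting used it, so reads of such a partner could be included.

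The libraries read the 3′ ends of polyadenylated transcripts, so the reads of a member lie near the end of its transcript. AATAAA, the canonical polyadenylation signal, was found on the transcript strand within the last 40 bases of 9 of 9 intervals. Among intervals of similar length (0.8 to 1.25 times that of the member), between 76.4% and 81.9% have AATAAA or ATTAAA there. The 3 anti-apoptotic members and the 2 effectors are shown with the signal in capitals, read 5′ to 3′ on the transcript strand from GRCm39.
Mcl1 (chr3:95570458-95570485, plus strand): tctgaagagaaAATAAAcctttttcccc
Bcl2 (chr1:106465917-106465944, minus strand): ctgtctgaaaaAATAAAataaaatacag
Bcl2l1 (chr2:152622598-152622623, minus strand): cagttcagtAATAAAtggtgtctgtg
Bak1 (chr17:27238792-27238819, minus strand): ctgtgtctggaAATAAActgtgcaatgc
Bok (chr1:93623455-93623482, plus strand): agttatactccAATAAAgctttacctag

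AU-rich elements in 3′ UTRs are known to shorten the life of many transcripts, and their core is ATTTA, here extended to TATTTAT, which contains it. Searched on the transcript strand alone, TATTTAT occurs 3 times in the interval of *Mcl1*, 2 times each in *Bcl2* and *Bcl2l11*, 1 time in *Bcl2l1*, and in none of the other 5 members. Among intervals of similar length, 44.5% hold it for the length of *Mcl1*, 63.8% for *Bcl2*, 60.1% for *Bcl2l11* and 33.3% for *Bcl2l1*. The share is 58.6% for *Bmf*, which has no match, and between 8.87% and 28.2% for *Bid*, *Bad*, *Bak1* and *Bok*. ATTTA itself occurs 15 times in *Bcl2* and 8 times in *Mcl1*, against a median of 9 and 4 in intervals of similar length. It occurs 6 times in *Bcl2l11* (median 7), 1 time each in *Bcl2l1* (median 2), *Bmf* (median 6) and *Bok* (median 1), and not in *Bid*, *Bad* or *Bak1*. The windows below show all matches of the 3 anti-apoptotic members and of *Bcl2l11*, with the match in capitals. Both *Bcl2* matches sit inside the longer TTATTTATT, which 22.1% of intervals of similar length hold, and the whole of it is in capitals.
Mcl1 (chr3:95568194-95568220, plus strand): aaaacatgtgTATTTATgaaggtggac
Mcl1 (chr3:95569890-95569916, plus strand): tgtacctgtgTATTTATccttgatcat
Mcl1 (chr3:95569915-95569941, plus strand): atagtttgctTATTTATgtttaactct
Bcl2 (chr1:106470726-106470752, minus strand): aaaaaagatTTATTTATTtaagacagt
Bcl2 (chr1:106467647-106467673, minus strand): ggcatattcTTATTTATTacatctaag
Bcl2l1 (chr2:152622813-152622839, minus strand): agcgtgtctgTATTTATgtgtgaggag
Bcl2l11 (chr2:128003030-128003056, plus strand): atattttgacTATTTATtagattagaa
Bcl2l11 (chr2:128003264-128003290, plus strand): agatgttgtaTATTTATtttccgctta

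Transcript levels are given as CPM relative to the reads counted on 1 interval per gene. Levels of the anti-apoptotic members are described first. *Mcl1*, whose protein binds BH3-only proteins and BAK1, had 174, 153 and 199.6 CPM in labeled CF (replicates 1, 2 and 3, in this order throughout), and 282 and 228 CPM in unlabeled CF (replicates 1 and 2). All labeled libraries were below both unlabeled ones. *Bcl2l1*, which encodes BCL-XL, had 138, 139 and 174 CPM in labeled and 60.2 and 75.3 CPM in unlabeled CF. Here all labeled libraries were above both unlabeled ones. *Bcl2*, the founding member of the family, had 81.9, 52.7 and 37.5 CPM in labeled and 123 and 78.3 CPM in unlabeled CF. Its lowest value was that of labeled replicate 3, which rests on 19 reads, and its groups overlapped through labeled replicate 1.

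Of the effectors, *Bak1* encodes a pore-forming protein that sits in the mitochondrial membrane. It had 57.1, 129 and 111 CPM in labeled and 120.5 and 79.3 CPM in unlabeled CF. Labeled replicate 1 was the lowest and labeled replicate 2 the highest of all 5 libraries, so the groups overlapped. *Bok*, an effector less dependent on the other family proteins, had 25.4, 25.9 and 21.7 CPM in labeled and 30.9 and 21.1 CPM in unlabeled CF, and its groups overlapped.

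Among the BH3-only members *Bad*, whose product is held in the cytosol by 14-3-3 proteins when phosphorylated, was the highest. It had 63.4, 93.7 and 63.2 CPM in labeled and 90.6 and 110.4 CPM in unlabeled CF, with labeled replicate 2 above the lower unlabeled library. *Bid*, which caspase-8 cleaves to link death receptors to mitochondria, had 37.4, 31.0 and 27.7 CPM in labeled and 46.1 and 42.2 CPM in unlabeled CF. All its labeled libraries were below both unlabeled ones. *Bcl2l11*, which encodes BIM, a sensor of growth factor loss, had 11.4, 11.7 and 13.8 CPM in labeled and 11.9 and 34.1 CPM in unlabeled CF. Unlabeled replicate 2 was its only high library. *Bmf*, a BH3-only gene linked to the cytoskeleton and loss of attachment, had 6.34, 6.69 and 5.93 CPM in labeled and 7.05 and 12.0 CPM in unlabeled CF, from 3 to 13 reads per library. All its labeled libraries were below both unlabeled ones.

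In order of level in labeled CF, the members were *Mcl1* (176 ± 23.3 CPM, SD, n = 3), *Bcl2l1* (150.4 ± 20.4), *Bak1* (98.9 ± 37.3), *Bad* (73.5 ± 17.5), *Bcl2* (57.4 ± 22.5), *Bid* (32.0 ± 4.97), *Bok* (24.4 ± 2.28), *Bcl2l11* (12.3 ± 1.32) and *Bmf* (6.32 ± 0.384). *Bak1* and *Bad* did not differ beyond their spread, nor did *Bad* and *Bcl2*. The other 6 neighbouring pairs differed by more than the SD of both genes and had the same order in 3 of 3 labeled libraries. Set among the 11189 genes with a read in every library, *Mcl1* lay at percentile 89.9 of the level, *Bcl2l1* at 88.0, *Bak1* at 81.2, *Bad* at 74.3, *Bcl2* at 67.9, *Bid* at 50.2, *Bok* at 42.3, *Bcl2l11* at 24.6 and *Bmf* at 12.0. The library kit reads 1 end of each transcript, so reads do not grow with length as in whole-transcript libraries. Divided by interval length, the order in labeled CF was *Bad* (193 CPM per kb), *Bcl2l1* (102), *Bak1* (88.4), *Mcl1* (74.5), *Bok* (40.1), *Bid* (27.6), *Bcl2* (11.3), *Bcl2l11* (2.92) and *Bmf* (1.66).

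**Figure D1:**
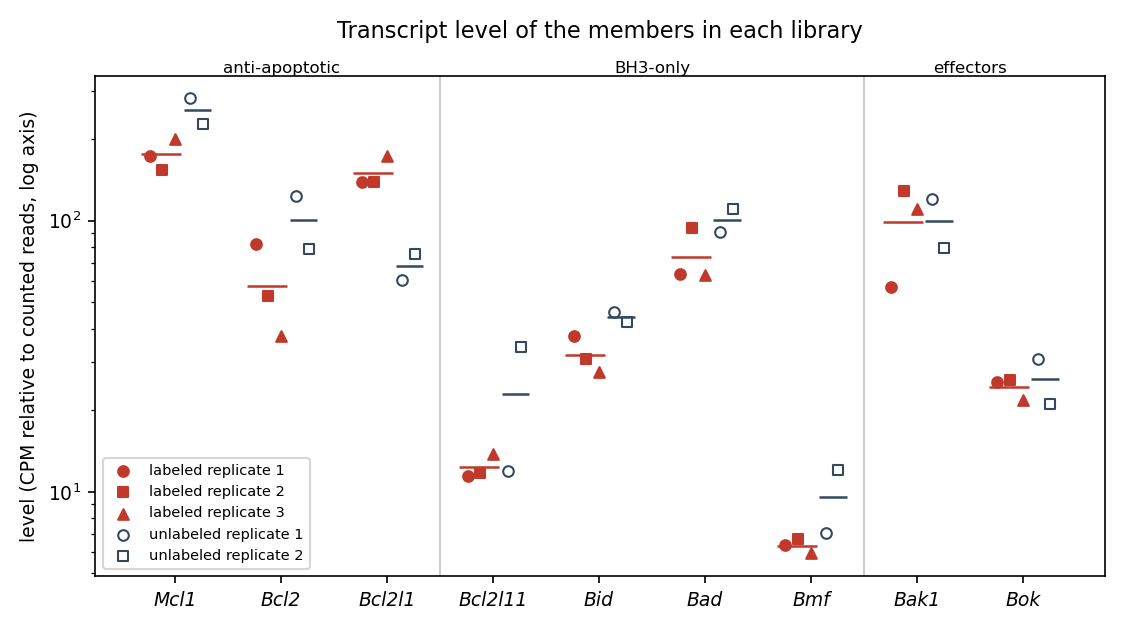
Transcript level of each member in CPM relative to counted reads, on a log axis, with 1 point per library and the mean of each group. *Mcl1* has the highest labeled mean, 176 CPM, and *Bmf* the lowest, 6.32 CPM; the labeled points of *Bcl2l1* lie above and those of *Mcl1*, *Bid* and *Bmf* below both unlabeled points.

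The T>C conversion rates compare the fraction of each transcript that carries label after 12 h. The rate of *Mcl1* was 0.0356, 0.0397 and 0.0372 in labeled replicates 1, 2 and 3, from 2179 to 5026 covered T positions, and 0.000840 and 0.000865 in the unlabeled libraries. Its labeled libraries were the closest together of all members. *Bcl2l1* had rates of 0.0376, 0.0305 and 0.0327 in labeled CF, 0.00204 in unlabeled replicate 1, and 0 conversions at 1257 covered T in unlabeled replicate 2, which allows a rate of up to 0.00239 (here and for each count of 0, 3 conversions over the covered T, which is not the bound of an exact interval). For *Bcl2* the labeled rates were 0.0361, 0.0303 and 0.0460, and the unlabeled rate was 0.000238 in replicate 1, with 0 conversions at 1678 covered T in replicate 2, which allows up to 0.00179. The highest labeled rate of *Bcl2* came from labeled replicate 3, where 435 T positions were covered.

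Rates of the effectors were 0.0470, 0.0271 and 0.0374 for *Bak1* in labeled CF, with 0.000401 in unlabeled replicate 1 and 0 of 1110 covered T in unlabeled replicate 2 (up to 0.00270). *Bok* had 0.0353, 0.0330 and 0.0615 in labeled CF, 0.00119 in unlabeled replicate 1 and 0 of 295 in unlabeled replicate 2 (up to 0.0102). The high value of *Bok* in labeled replicate 3 rests on 11 conversions at 179 covered T positions, with an exact 95% binomial interval from 0.0311 to 0.107.

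The BH3-only members differed in coverage and spread, with *Bid* the closest together. *Bid* had 0.0347, 0.0412 and 0.0439 in labeled CF, and 0.00312 and 0.000945 in the unlabeled libraries, with 6 and 1 conversions. *Bad* had 0.0273, 0.0260 and 0.0487 in labeled CF, 0.00100 in unlabeled replicate 1 and 0 of 1653 in unlabeled replicate 2 (up to 0.00181). Labeled replicate 3 was the high library for *Bad*, as it was for *Bcl2*, *Bid*, *Bmf* and *Bok*. *Bcl2l11* had 0.0308, 0.0549 and 0.0366 in labeled CF, 0 of 635 in unlabeled replicate 1 (up to 0.00472) and 0.00104 in unlabeled replicate 2. *Bmf* had 0.0192, 0.0259 and 0.0556 in labeled CF, 0.00268 in unlabeled replicate 1 and 0 of 337 in unlabeled replicate 2 (up to 0.00890). Its labeled rates rest on 5, 6 and 5 conversions. These limits and intervals cover counting error only.

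The labeled rate exceeded the unlabeled rate for 9 of 9 members at an unadjusted p below 0.05 in a beta-binomial likelihood-ratio test, in which 95.1% of the 11179 genes tested passed. The share of members called is therefore near that of all genes. The p-values ran from 1.90e-07 for *Mcl1*, the member with the most covered T, to 0.00208 for *Bmf*, the member with the fewest. In order of the mean rate in labeled CF (± SD, n = 3), the members were *Bok* (0.0432 ± 0.0158), *Bcl2l11* (0.0408 ± 0.0126), *Bid* (0.0399 ± 0.00471), *Mcl1* (0.0375 ± 0.00204), *Bcl2* (0.0375 ± 0.00791), *Bak1* (0.0372 ± 0.00995), *Bad* (0.0340 ± 0.0128), *Bcl2l1* (0.0336 ± 0.00364) and *Bmf* (0.0335 ± 0.0194). Of the 8 neighbouring pairs, 0 differed by more than the SD of both genes. With conversions pooled over the labeled libraries, the exact 95% binomial intervals of all 9 members overlapped, with the highest lower bound at 0.0338 (*Mcl1*) and the lowest upper bound at 0.0361 (*Bad*). Differences in rate between members were not tested.

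**Figure D2:**
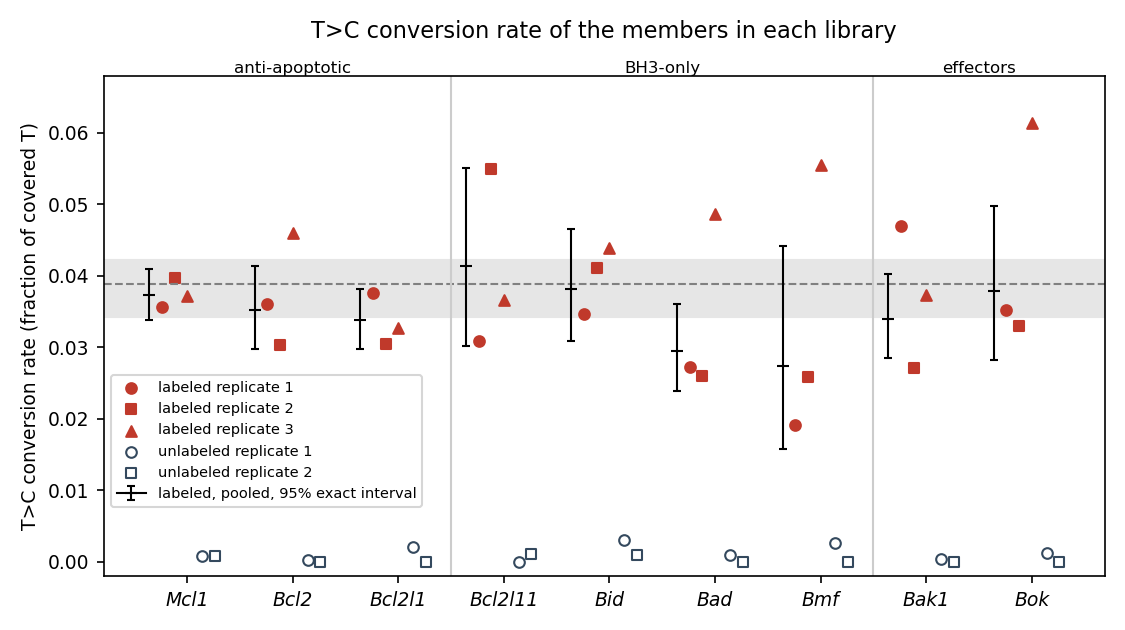
T>C conversion rate of each member in each library. Black bars give the rate pooled over the labeled libraries with its exact 95% binomial interval, which covers counting error and not the spread between libraries. The dashed line and band mark the median (0.0388) and quartiles (0.0343 and 0.0423) of the deeply covered genes described next. Labeled points lie between 0.0192 and 0.0615 and unlabeled points at or below 0.00312, and the labeled ranges of the members overlap.

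*Mcl1* and *Bcl2l1* were the 2 members in which every library covered at least 1000 T positions, as was the case for 2105 genes. These genes had a median labeled rate of 0.0388, with quartiles of 0.0343 and 0.0423. *Mcl1* had a higher rate than 40.8% of them and *Bcl2l1* a higher rate than 22.8%. Of the 9 members, 3 (*Bok*, *Bcl2l11* and *Bid*) had a mean rate above that median and 6 below it.

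Pro- and anti-apoptotic members were compared by the median rate of the members in each labeled library. The difference, pro-apoptotic minus anti-apoptotic, was -0.00329, -0.000417 and 0.00913 in labeled replicates 1, 2 and 3, a mean of 0.00181 ± 0.00650 (SD, n = 3). Its sign was negative in 2 libraries and positive in labeled replicate 3, the library with the fewest reads, and without that library the mean was -0.00186. With conversions and covered T summed over the members of each class, the rate was 0.0359 ± 0.000948 for anti-apoptotic and 0.0365 ± 0.00652 for pro-apoptotic members (SD, n = 3). No test of this difference was made, since members of a class are not replicates and 3 libraries allow no exact paired test below 0.25.

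The share of a gene's reads with at least 1 conversion splits the level into a part that carries label and a part in which none was read. For *Mcl1* it was 46.0%, 51.9% and 55.4% in labeled CF against 1.73% and 1.76% in unlabeled CF, which gave 90.0 ± 17.9 CPM converted and 85.5 ± 10.6 CPM unconverted (SD, n = 3). *Bcl2l1* had 40.4%, 39.8% and 42.0% converted reads against 2.70% and 0%, or 61.4 ± 10.2 CPM converted and 89.0 ± 10.2 CPM unconverted. In each labeled library *Mcl1* had a higher converted share than *Bcl2l1*. *Bak1*, with 36.5% ± 6.93 converted, had 35.0 ± 11.4 CPM converted and 63.8 ± 28.9 CPM unconverted, and *Bad*, with 31.1% ± 8.59, had 22.6 ± 6.38 CPM and 50.9 ± 14.9 CPM. *Bid* had 59.7% ± 6.26 converted, *Bcl2* 47.1% ± 5.68 and *Bok* 45.7% ± 8.54. *Bcl2l11* had 63.0% ± 21.2 and *Bmf* 59.2% ± 35.4, the latter from 3 to 10 reads per labeled library. This share moves with the number of T positions that a read covers, which was 12.8 for *Bak1*, 12.9 for *Bad*, 15.5 for *Bcl2l1*, 15.8 for *Bok*, 19.1 for *Bcl2*, 19.7 for *Mcl1*, 22.1 for *Bid*, 27.3 for *Bcl2l11* and 27.8 for *Bmf*. The 4 members with the fewest T per read were also those with the lowest shares. The order of the shares differs from that of the rates, and the part of T content in it was not tested.

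**Figure D3:**
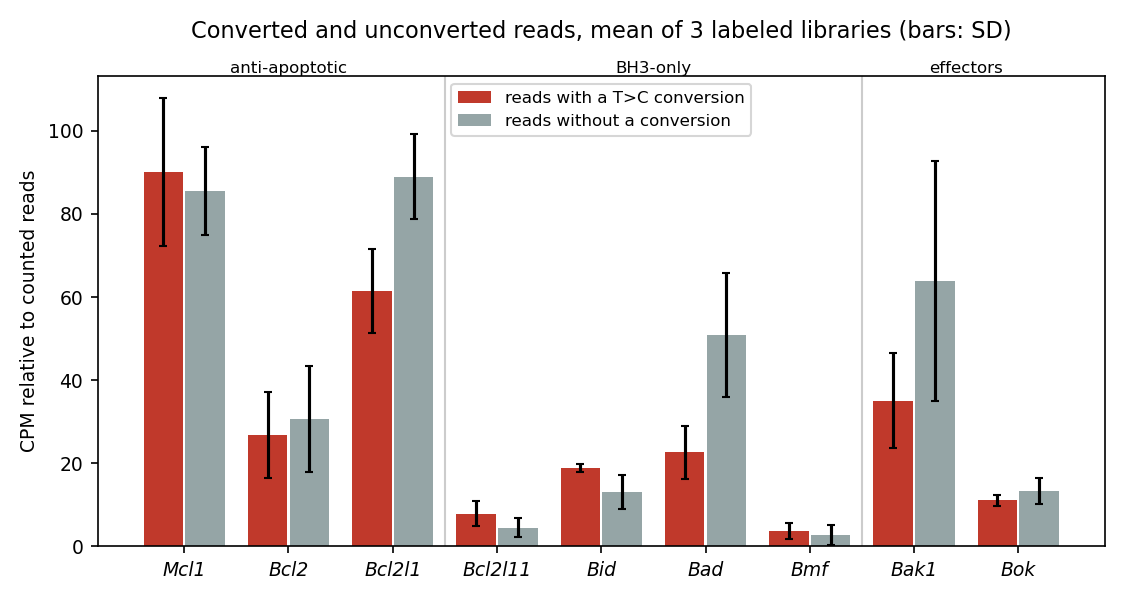
Level of each member in labeled CF divided into reads with and without a T>C conversion, in CPM relative to counted reads, as means with SD (n = 3). *Mcl1* has 90.0 CPM converted and 85.5 CPM unconverted, and *Bcl2l1* has 61.4 and 89.0 CPM.

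The balance of the family was also described by reads. Anti-apoptotic members took 66.2%, 53.6% and 62.8% of the members' reads in labeled CF, and 60.3% and 56.0% in unlabeled CF, so the groups overlapped. BH3-only members took 19.7% ± 2.68 and effectors 19.4% ± 5.17 in labeled CF (SD, n = 3), against 24.7% and 17.2% as means of the unlabeled libraries. With *Mcl1* left out, the anti-apoptotic share in labeled CF was 46.0%.

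Within the anti-apoptotic class, *Bcl2l1* took 35.1%, 40.3% and 42.3% of the reads in labeled CF and 12.9% and 19.7% in unlabeled CF. The corresponding shares of *Mcl1* were 44.1%, 44.4% and 48.6% against 60.6% and 59.7%. *Bcl2* took 20.8%, 15.3% and 9.13% against 26.5% and 20.5%, and its groups overlapped through labeled replicate 1. *Mcl1* had 1.26, 1.10 and 1.15 times the reads of *Bcl2l1* in labeled and 4.68 and 3.03 times in unlabeled CF, without overlap. This ratio was chosen after its values were seen. An exact permutation test of its log2 gave a two-sided p of 0.2. The test cannot decide whether the ratio differs, since 3 libraries against 2 allow no one-sided p below 0.1.

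**Figure D4:**
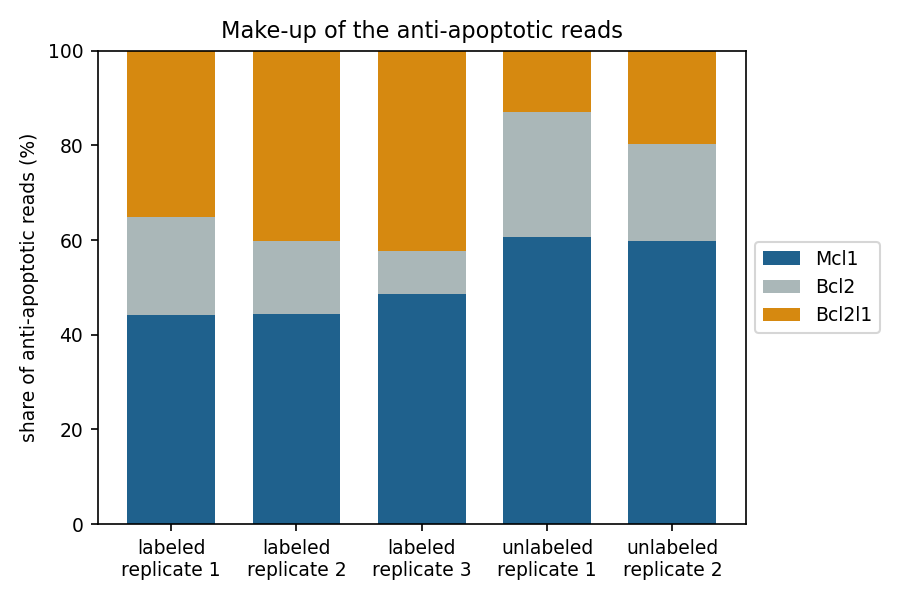
Share of the reads of the 3 anti-apoptotic members that fell on each of them, in percent, for each of the 5 libraries. *Bcl2l1* takes 35.1%, 40.3% and 42.3% in the labeled libraries, and 12.9% and 19.7% in the unlabeled libraries.

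The quasi-likelihood test of edgeR was applied to the reads of 9807 genes in labeled and unlabeled CF, which asks whether 12 h with S4U went with other transcript levels. Of the members, 8 passed the filter on low counts and *Bmf* did not. At a Benjamini-Hochberg adjusted p below 0.05, 0 members were called, as were 0% of all genes tested, and DESeq2 called 0 members and 0.204% of genes. With the replicate number as a block, edgeR called *Bcl2l1* and *Mcl1* and 11.7% of all genes, with 1 residual degree of freedom. The labels do not say that a number marks a shared preparation. At an unadjusted p below 0.05 in edgeR without the block 1 member, *Bcl2l1*, passed, where 5.97% of genes did (2.84% higher and 3.12% lower in labeled CF). Its log2 fold change was 1.22 ± 0.29 (SE), a 2.34-fold higher estimate in labeled CF, with an unadjusted p of 0.00397 and an adjusted p of 0.543 in edgeR. Without labeled replicate 1, the library that stood apart, the log2 fold change was 1.30 and edgeR's adjusted p 0.393. Every labeled library was above both unlabeled ones for 1 tested member, *Bcl2l1*, and below them for 2, *Mcl1* and *Bid*, against 8.2% and 13.1% of all genes tested. Groups without overlap in either direction were thus found for 3 of 8 members and for 21.3% of all genes tested.

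The other log2 fold changes, labeled against unlabeled, were -0.46 ± 0.25 (SE) for *Mcl1*, -0.71 ± 0.37 for *Bcl2*, -0.83 ± 0.55 for *Bcl2l11*, -0.37 ± 0.29 for *Bid*, -0.37 ± 0.30 for *Bad*, 0.06 ± 0.41 for *Bak1* and -0.02 ± 0.33 for *Bok*. Their adjusted p-values in edgeR without the block were between 0.910 and 1.00. Of the 8 members 6 had a negative value, with a median of -0.37 against 0.02 for all genes tested. The value of *Bcl2l11* rests on unlabeled replicate 2, since without it the log2 fold change was 0.14. The values of *Bak1* and *Bok* changed sign with single libraries left out. Those of *Bcl2* (-1.04 to -0.40), *Bad* (-0.59 to -0.17), *Mcl1* (-0.57 to -0.35) and *Bid* (-0.49 to -0.30) kept their sign but varied in size.

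**Figure D5:**
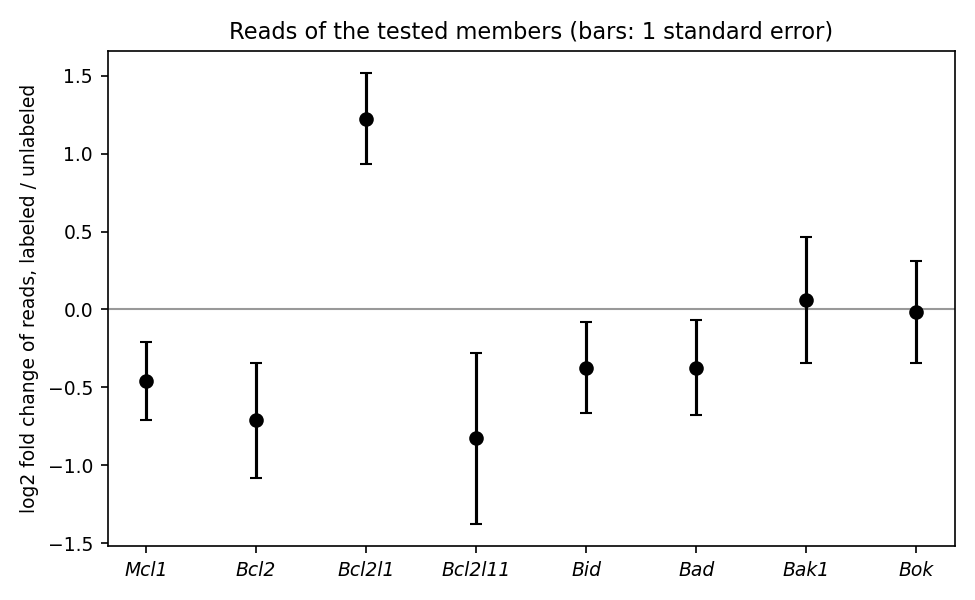
Log2 fold change of reads, labeled against unlabeled CF, of the 8 members tested with edgeR, with bars of 1 SE. *Bcl2l1* is at 1.22 and the other members lie between -0.83 and 0.06.

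The tables also hold 16 other family members, of which 4 (*Bcl2a1d*, *Bcl2l10*, *Bcl2l14* and *Hrk*) are listed at 0 reads in all libraries and 7 could be tested for reads. Of these 7, 0 passed at an adjusted p below 0.05 in edgeR and 1, *Pmaip1*, passed unadjusted, where 0% and 5.97% of all genes did. *Pmaip1* had 45.7, 29.3 and 47.4 CPM in labeled and 10.9 and 5.02 CPM in unlabeled CF. Its log2 fold change was 2.36 ± 0.46 (SE), with an unadjusted p of 0.00130 and an adjusted p of 0.532 in edgeR. *Bcl2l2*, which encodes the anti-apoptotic BCL-W, had the highest level, with 543, 208 and 207 CPM in labeled and 428 and 205 CPM in unlabeled CF. Replicate 1 of each group was high, and the mean in labeled CF, 319.7 ± 194 CPM (SD, n = 3), exceeded that of *Mcl1* by less than its own spread. *Mcl1* had 174, 153 and 199.6 CPM in labeled and 282 and 228 CPM in unlabeled CF. The level of *Bcl2l2* was thus the higher in each labeled library and in unlabeled replicate 1, and the lower in unlabeled replicate 2. Among the other members with at least 100 covered T in each labeled library, rates ran from 0.0330 ± 0.00332 for *Bbc3* to 0.0419 ± 0.00867 for *Pmaip1*, both BH3-only genes. The lower of these is just under the lowest mean rate of the 9 members, by less than its SD, and the higher is within their range.

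Genes that act after or upon the family were read in the same way. For reads in edgeR, 0% of all genes tested passed at an adjusted p below 0.05 and 5.97% at an unadjusted p below 0.05. Of 12 genes of the apoptosome and caspases, 12 of 12 were tested for reads and 0 passed at an adjusted p below 0.05 or at an unadjusted p below 0.05 in edgeR. The highest was *Cflar*, an inhibitor of caspase-8 activation, with 248 ± 64.4 CPM in labeled CF (SD, n = 3). Of 7 caspase inhibitors and their antagonists, 0 passed either threshold in edgeR. *Xiap*, a direct caspase inhibitor, had the highest level of them, 114 ± 33.1 CPM, and rates ran from 0.0256 ± 0.00437 for *Birc2*, a ubiquitin ligase of death receptor signaling, to 0.0545 ± 0.0126 for *Birc5*, a gene of dividing cells. Of 13 regulators of the member proteins 12 were tested, of which 0 passed either threshold in edgeR, and *Usp9x* was listed at 0 reads. *Ywhaz*, a 14-3-3 protein, had 493 ± 28.5 CPM. Rates of the regulators ran from 0.0348 ± 0.00393 for *Foxo1*, a transcription factor, to 0.0451 ± 0.00319 for *Vdac1*, a channel of the outer mitochondrial membrane. The T>C test called all genes tested of these lists, 8 of 8, 12 of 12, 7 of 7 and 12 of 12, where it called 95.1% of all genes.

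The genes most like *Mcl1* and *Bcl2l1* were found by Euclidean distance over the log2 level in the 5 libraries and the log2 T>C rate in the 3 labeled libraries, among 2121 genes with enough coverage. The nearest to *Mcl1* were *Runx1t1* (distance 0.306), *Antxr1* (0.409) and *Rap1b* (0.469), where the median gene lay at 2.15. *Runx1t1* had 177, 171 and 194 CPM in labeled and 244 and 247 CPM in unlabeled CF, so all its labeled libraries were lower too. The nearest to *Bcl2l1* were *Inhbb* (0.576), *Loxl3* (0.679) and *Ier3* (0.735), against a median of 2.49. *Inhbb*, which encodes a subunit of activin and inhibin, had 149, 132 and 168 CPM in labeled and 74.9 and 87.3 CPM in unlabeled CF, higher in all labeled libraries, with a T>C rate of 0.0375 ± 0.00181 (SD, n = 3).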

How the data were processed

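SLAMseq libraries (3′ end reads with unique molecular identifiers) of 3 labeled and 2 unlabeled CF samples were used, grouped by their labels. The authors mapped reads with SLAM-DUNK 0.4.3 to mm39 and deposited counts of reads, converted reads, covered T positions and conversions per 3′ UTR interval. The conversion rate that they deposited is given as a fraction. The deposited CPM divides by a total that exceeds the reads counted on 1 interval per gene by 7.58 to 28.9 times, so levels were recomputed relative to the counted reads. A read can be counted as converted while its conversion is not counted at a covered T.

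Repeated rows were used once. All 40380 intervals on reference chromosomes matched GRCm39 in T content. For T>C counts a beta-binomial likelihood-ratio test was used (1 shared overdispersion, two-sided, p below 0.05 unadjusted, at least 1 covered T per library), and for read counts edgeR's quasi-likelihood test (TMM, filterByExpr, 1 interval per gene). Both were tested on simulated data. Of 200 genes changed by a log2 fold of 2, edgeR recovered 56.5% with 12 false calls, and 41% with the replicate block. So the read test can miss changes of that size. The beta-binomial test called 79.5% of intervals with a 20-fold higher rate and 6.04% of unchanged intervals. The similarity of patterns used a pseudocount of 1 CPM and genes with at least 1000 covered T and 1 conversion in every labeled library. Named were the 9 members and, of each further list, the gene with the highest level and those with the highest and lowest rate at 100 or more covered T. A few genes that this rule names were left out. The members and lists were chosen with earlier results of these data known. Versions were edgeR 4.0.16, DESeq2 1.42.0 and limma 3.58.1 in R 4.3.3, and scipy 1.17.1, numba 0.67.0, pandas 2.3.3, matplotlib 3.10.9 and numpy 2.4.6 in Python 3.11.15.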

Additional observations from a re-analysis of the deposited data

How the results depend on the processing

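The T>C call held for 9 of 9 members with Benjamini-Hochberg adjustment, with limma on log odds (pseudocount 0.5), also with the replicate number as a block, and with each library left out (range 9 to 9). With at least 100 covered T per library it held for 8 of 8 and with at least 1000 for 2 of 2, since fewer were tested. The pro-apoptotic minus anti-apoptotic rate ranged from -0.00186 to 0.00436 with 1 library left out. The anti-apoptotic share of reads was 68.8% with reads summed over all intervals, which counts 2 nested *Bcl2l1* intervals with the same reads, 61.7% without overlapping intervals and 46.0% without *Mcl1*. Leaving out 1 library gave 58.2% to 64.5% in labeled and 56.0% to 60.3% in unlabeled CF. The number of members called for reads was 0 under the other normalizations and filters, in DESeq2 and with each library left out (0 to 0). There edgeR's and DESeq2's adjusted p ranged from 0.186 to 1.00 for *Bcl2l1* and from 0.606 to 1.00 for *Mcl1*. With the replicate block edgeR called 2 members, *Bcl2l1* (log2 fold change 1.11, adjusted p 1.83e-07) and *Mcl1* (-0.59, 0.00407), and 11.7% of all genes, with 1 residual degree of freedom. Same-numbered libraries deviated together (correlations 0.784 and 0.638 across genes), as did labeled replicate 3 with unlabeled replicate 2 (0.482), and the labels do not say that a number marks a shared preparation. Signs turned for *Bcl2l11* (0.14 without unlabeled replicate 2, range -1.46 to 0.14), *Bak1* (-0.18 with the replicate block, range -0.18 to 0.36 with 1 library left out) and *Bok* (0.00180 with the block, range -0.21 to 0.24), and the cause was not tested. Depth limits the rates of *Bmf*, *Bok* and *Bcl2l11* most. Leaving out *Bmf* and the intervals without overlap were chosen after seeing the data.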
